A study of Mus musculus with 16 samples.

Results

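The facilitative glucose transporters, encoded by the Slc2a gene family, were examined in left ventricles of PKM2fl/fl and PKM2-/- mice. The members were chosen by gene symbol, with earlier results of these data known. All 9 chosen (Slc2a1, Slc2a3, Slc2a4, Slc2a5, Slc2a6, Slc2a8, Slc2a9, Slc2a10 and Slc2a12) were found among the 55492 genes of the deposited table. RNA sequencing covered 16 hearts of male C57BL/6 mice aged 8 to 12 weeks, each library from its own mouse. In each genotype there were 2 unoperated hearts (baseline), 3 hearts taken 3 days after a sham operation, and 3 hearts taken 3 days after myocardial infarction (MI) by permanent ligation of the left anterior descending artery. PKM2fl/fl mice carry loxP sites around Pkm exon 10, the exon that makes the M2 isoform of pyruvate kinase. PKM2-/- mice lack that exon in every tissue, since CMV-Cre removed it in the germline and the Cre allele was then bred out. Controls were therefore floxed mice, not wild type. Values are normalized counts, that is, reads per gene divided by a factor that puts the libraries on a common scale.

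Facilitative transporters let hexoses cross membranes down their concentration gradient, without coupling to ions or ATP. In the heart, GLUT1 (Slc2a1) serves basal uptake and GLUT4 (Slc2a4) is held in intracellular vesicles that move to the cell surface on insulin stimulation or contraction. Most of the remaining members carry other substrates, sit on intracellular membranes, or are best known from other cell types. In a piece of ventricle, a change in a transcript may come from fewer cells of a type or from less RNA per cell, and these cannot be told apart.

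Libraries held 20623769 to 71855101 reads on genes. The share of these on rRNA-related loci differed between genotypes without infarct, at 17.3% and 22.2% in PKM2fl/fl and 44.2% and 40.1% in PKM2-/- baseline hearts and at 15.9% to 27.9% and 29.0% to 46.5% after sham. After MI it was 44.4%, 19.9% and 45.3% in PKM2fl/fl replicates 1, 2 and 3, and 16.2% to 35.2% in PKM2-/- hearts. Without infarct, Pkm as a whole gene had 7779 to 9602 normalized counts in PKM2fl/fl hearts and 11710 to 14242 in PKM2-/- hearts. After MI the ranges overlapped, at 9576 to 12076 and 10120 to 16113. Counts per gene do not check the loss of exon 10. The 10 cardiomyocyte genes used as markers summed to 1374585 to 1769635 normalized counts in the hearts without infarct. They summed to 683118 and 683247 in PKM2fl/fl MI replicates 1 and 2, to 316752 in replicate 3, and to 307353 to 398193 in PKM2-/- MI hearts. PKM2fl/fl MI replicate 3 thus stood apart from its group in these genes, while replicate 2 did so in the share on rRNA-related loci. Fold changes of members that moved with replicate 3 are given with and without it.

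The stretch before the start of transcription is shown for 3 members that differed in direction after MI and in the letters ACGTG and GCGTG, the core of the hypoxia response element to which HIF factors bind. Slc2a1 and Slc2a6 were higher and Slc2a12 was lower after MI. The sequences are from RefSeq on GRCm38.p6, the 250 bases before the start set for each promoter, 5′ to 3′ on the gene's strand. Capitals mark matches to either motif on either strand (CACGT and CACGC are the reverse forms). Slc2a1 lies at chr4:119108495-119108744 on the + strand, Slc2a6 at chr2:27027999-27028248 on the - strand, and Slc2a12 at chr10:22644761-22645010 on the + strand. The last bases of the Slc2a6 and Slc2a12 stretches lie inside the gene as annotated, which reaches chr2:27028000 and starts at chr10:22644990.
Slc2a1: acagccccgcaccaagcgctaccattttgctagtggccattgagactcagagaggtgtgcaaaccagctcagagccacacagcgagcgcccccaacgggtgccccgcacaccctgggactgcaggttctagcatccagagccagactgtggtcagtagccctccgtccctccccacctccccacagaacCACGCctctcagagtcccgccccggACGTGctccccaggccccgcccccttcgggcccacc
Slc2a6: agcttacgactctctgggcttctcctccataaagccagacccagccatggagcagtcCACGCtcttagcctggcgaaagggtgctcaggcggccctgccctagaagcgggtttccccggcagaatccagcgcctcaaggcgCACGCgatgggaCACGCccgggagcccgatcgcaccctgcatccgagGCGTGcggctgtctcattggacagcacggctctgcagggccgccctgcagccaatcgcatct
Slc2a12: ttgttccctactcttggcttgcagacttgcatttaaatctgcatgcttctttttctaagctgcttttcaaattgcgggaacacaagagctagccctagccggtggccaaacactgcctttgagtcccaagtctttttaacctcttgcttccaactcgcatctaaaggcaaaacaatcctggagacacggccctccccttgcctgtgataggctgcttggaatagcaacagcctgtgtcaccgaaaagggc

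Slc2a1 held ACGTG from 36 bases before the start and CACGC from 61 bases before it, 2 matches in all. Slc2a6 held 4 matches and Slc2a12 held 0. Of the 7 members with a promoter in the RefSeq table, Slc2a8 and Slc2a10 had 1 match each in the window of 300 bases that also takes in the first bases of the gene, and Slc2a5 and Slc2a9 had 0. The letters did not follow the direction after MI in every member, since Slc2a8 was lower with a match. Slc2a9 was higher without one, but its stretch (chr5:38483386-38483635 on the - strand) lay inside the gene as annotated (chr5:38349272-38503147). No match lay in the E-box CACGTG, which overlaps ACGTG. Such letters are common, as 43.8% of 32851 promoter windows of the same length held at least 1. Promoters of Slc2a3 and Slc2a4 are not shown.

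Slc2a4 had the highest mean level per kilobase of its canonical transcript in every group. Levels between genes are compared on this scale (normalized counts per kilobase, GENCODE lengths), on which Slc2a4 stood at 2062 ± 140 (SD, n = 2) in PKM2fl/fl baseline hearts. The next were Slc2a8 at 123 ± 12.7 (SD, n = 2) and Slc2a1 at 73.6 ± 8.66 (SD, n = 2) per kilobase. Below these in the same hearts came Slc2a9 (55.3), Slc2a12 (45.6), Slc2a3 (24.5), Slc2a10 (17.1), Slc2a6 (9.96) and Slc2a5 (1.54), and no neighbours in this order overlapped, with 2 hearts each. In PKM2fl/fl sham hearts the order from Slc2a12 through Slc2a9, Slc2a3 and Slc2a6 to Slc2a10 was not resolved, because each overlapped the next. The order depends on the length used, since over all annotated exons Slc2a1 stood at 69.7 per kilobase and Slc2a8 at 52.4 in PKM2fl/fl baseline hearts. On that length Slc2a1 (304) also stood above Slc2a4 (180) in PKM2-/- MI hearts.

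After MI, the gap between Slc2a4 and Slc2a1 narrowed. Of the summed count per kilobase of the 9 members, Slc2a4 made up 84.5% in PKM2fl/fl sham hearts and 49.1% ± 16.7 (SD, n = 3) after MI. Its share in PKM2-/- hearts was 82.6% after sham and 35.3% ± 3.99 (SD, n = 3) after MI. The share of Slc2a1 went from 3.55% to 21.7% ± 8.48 (SD, n = 3) in PKM2fl/fl and from 4.42% to 32.0% ± 2.33 (SD, n = 3) in PKM2-/- hearts. In PKM2fl/fl MI replicates 1 and 2 Slc2a4 still held 56.4% and 60.8% against 21.5% and 13.4% for Slc2a1, and only replicate 3 had near-equal shares (30.0% against 30.3%). The PKM2-/- MI shares were 39.8%, 32.4% and 33.6% for Slc2a4 and 29.5%, 32.5% and 34.1% for Slc2a1. Per kilobase the levels of these members thus overlapped in PKM2-/- MI hearts and, through replicate 3 alone, in PKM2fl/fl MI hearts. Over all annotated exons Slc2a1 took the larger share in PKM2-/- MI hearts (44.2% against 25.8%). The sum over the 9 members fell to 0.505 of sham in PKM2fl/fl and to 0.452 of sham in PKM2-/- hearts (exact permutation test, 2-sided, p = 0.1 in each, the smallest that 3 hearts against 3 allow).

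**Figure D1:**
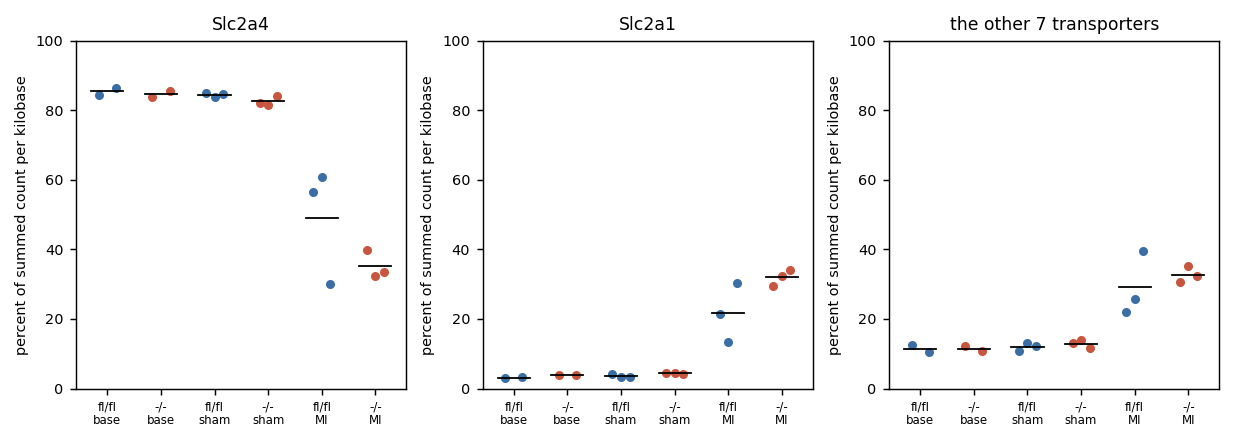
Share of the summed normalized count per kilobase of the 9 transporters (y axis, percent) taken by Slc2a4, by Slc2a1 and by the other 7 in each library, for 6 groups (x axis; fl/fl is PKM2fl/fl, -/- is PKM2-/-, base is baseline). Points are libraries and lines are group means, with Slc2a4 at a mean of 49.1% in PKM2fl/fl MI (30.0% in replicate 3) and 35.3% in PKM2-/- MI hearts.

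All 8 members with enough reads to test differed between MI and sham hearts in each genotype, 5 higher and 3 lower. The test was limma on log2(normalized count + 1) over all 16 libraries, with Benjamini-Hochberg adjustment over the 20576 genes that averaged 10 normalized counts or more, and a gene was called at an adjusted p under 0.05. MI moved much of the transcriptome, since 50.1% of genes were called in PKM2fl/fl hearts (24.8% higher, 25.3% lower) and 56.8% in PKM2-/- hearts (28.7% higher, 28.1% lower). That even split depends on the scaling, since with libraries scaled to their total counts 2386 genes were higher and 3636 lower in PKM2fl/fl hearts and 7293 higher and 1891 lower in PKM2-/- hearts. The change was at least 2-fold for 6 of the 8 in PKM2fl/fl hearts (23.5% of all genes) and for 5 of the 8 in PKM2-/- hearts (28.8% of all genes). The median absolute log2 fold change of the 8 was 1.07 in PKM2fl/fl and 1.15 in PKM2-/- hearts, beside 0.51 and 0.60 over all genes. MI hearts and sham hearts did not overlap for any of the 8, as was so for 59.0% of all genes in PKM2fl/fl and 62.3% in PKM2-/- hearts. Since the members were chosen with earlier results of these data known, the values over all genes are background and no test. Directions held under every scaling, filter, tool and left-out library tried other than division by cell type markers, but with libraries scaled to their total counts Slc2a3, Slc2a6, Slc2a8 and Slc2a9 were not called in PKM2fl/fl hearts (limma adjusted p = 0.0763, 0.128, 0.05003 and 0.0556) and Slc2a8 was not called in PKM2-/- hearts (0.497, and 0.0707 when rRNA-related loci were left out of the totals). Without PKM2fl/fl MI replicate 3, 7 of the 8 were called in PKM2fl/fl hearts, with log2 fold changes of 1.42 for Slc2a1, 0.83 for Slc2a3, 0.89 for Slc2a9 and 1.01 for Slc2a10, and the remaining values are given with each gene.

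**Figure D2:**
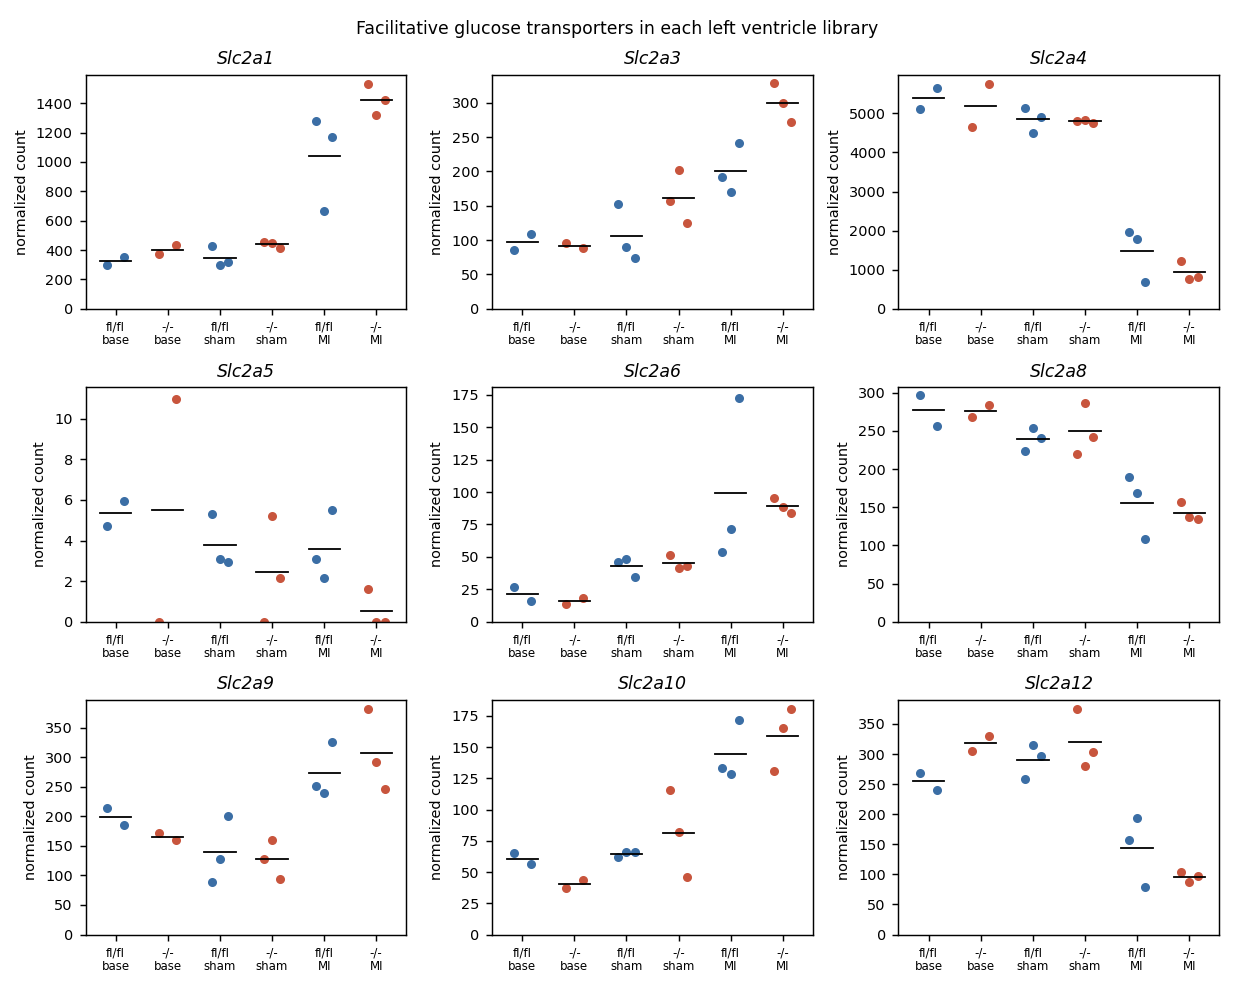
Normalized count (y axis, linear, from 0) of each of the 9 transporters in each library, for 6 groups (x axis; fl/fl is PKM2fl/fl, -/- is PKM2-/-, base is baseline). Points are libraries and lines are group means. Slc2a4, Slc2a8 and Slc2a12 were lower in every MI heart than in every sham heart, and Slc2a1, Slc2a3, Slc2a6, Slc2a9 and Slc2a10 were higher within each genotype.

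Slc2a4 encodes GLUT4, the insulin-responsive transporter of muscle and fat, and lies at chr11:69942286-69948216 (this and the positions that follow are RefSeq genes on GRCm38.p6). In PKM2fl/fl hearts it had 5131, 4493 and 4912 normalized counts after sham and 1971, 1778 and 681 after MI. The PKM2-/- values were 4818, 4843 and 4762 after sham and 1216, 773 and 822 after MI. Every MI heart was below every sham and baseline heart, and within the PKM2fl/fl MI group replicate 3 was far below the other two. Slc2a4 fell 3.62-fold in PKM2fl/fl (log2 fold change -1.86, SE 0.29, limma adjusted p = 8.06e-05) and 5.23-fold in PKM2-/- hearts (log2 fold change -2.39, SE 0.29, limma adjusted p = 5.72e-06). The PKM2fl/fl value was -1.37 without MI replicate 3. Reads from its overlapping antisense neighbour Ybx2 (272 normalized counts on average) could not be told apart, since the strand setting of the counting is not given.

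Slc2a12 encodes GLUT12, a second transporter that insulin can move to the surface of muscle cells, and lies at chr10:22644990-22703880. Sham hearts of PKM2fl/fl mice had 259, 315 and 297 normalized counts and MI hearts 158, 194 and 78.7. Those of PKM2-/- mice had 375, 280 and 304 after sham and 104, 87.0 and 96.7 after MI. As with Slc2a4, PKM2fl/fl MI replicate 3 was the lowest of its group. Slc2a12 fell 2.15-fold in PKM2fl/fl (log2 fold change -1.10, SE 0.24, limma adjusted p = 0.00144) and 3.29-fold in PKM2-/- hearts (log2 fold change -1.72, SE 0.24, limma adjusted p = 2.43e-05). Leaving out PKM2fl/fl MI replicate 3 brought the PKM2fl/fl value to -0.72 (limma adjusted p = 0.00183; 8.05e-05 to 0.0201 over all alternatives). It shares 6498 bases with Tbpl1 on the opposite strand, which had 596 normalized counts on average.

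Slc2a8 encodes GLUT8, a transporter kept on intracellular membranes, and lies at chr2:32972981-32982083. The 3 PKM2fl/fl sham hearts had 223, 254 and 241 normalized counts, and the MI hearts had 190, 168 and 109. Among PKM2-/- hearts, counts were 220, 286 and 242 after sham and 157, 137 and 134 after MI. Groups did not overlap, although the fold changes were the smallest of the 8 members in either genotype. Slc2a8 fell 1.57-fold in PKM2fl/fl (log2 fold change -0.65, SE 0.18, limma adjusted p = 0.00670) and 1.73-fold in PKM2-/- hearts (log2 fold change -0.79, SE 0.18, limma adjusted p = 0.00142). With PKM2fl/fl MI replicate 3 left out, the PKM2fl/fl value was -0.42 (limma adjusted p = 0.0318; 0.00183 to 0.05003 over all alternatives).

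The cardiomyocyte genes moved with these 3 transporters. Of 10 such genes, 9 were lower after MI in PKM2fl/fl and 10 in PKM2-/- hearts (25.3% and 28.1% of all genes were lower). Their median log2 fold changes were -1.77 and -2.12, and 0 of them were at 0 in all libraries. Per 1000000 counts of the summed cardiomyocyte genes, Slc2a4 ranged from 2151 to 2885 in PKM2fl/fl MI hearts and from 2882 to 3165 in sham hearts, a log2 difference of -0.24 (exact permutation test, 2-sided, p = 0.2, adjusted p = 0.467 over 35 comparisons). In PKM2-/- hearts it ranged from 2365 to 3054 after MI and from 2849 to 3505 after sham, a log2 difference of -0.24 (exact permutation test, 2-sided, p = 0.2, adjusted p = 0.467). With 3 hearts against 3 this test cannot give a p under 0.1. On this scale, which was chosen after the values were seen, the PKM2fl/fl overlap was narrow. MI replicate 1 stood at 2885 beside 2882 in sham replicate 3, while MI replicates 2 and 3 (2602 and 2151) lay below every sham heart. In PKM2-/- hearts, MI replicate 1 (3054) lay above sham replicate 2 (2849). Per cardiomyocyte sum, Slc2a8 stood higher in MI hearts than in sham hearts, by 0.96 in PKM2fl/fl and 1.36 in PKM2-/- hearts on the log2 scale (exact permutation test, 2-sided, p = 0.1 in each, adjusted p = 0.35). Slc2a12 differed by 0.51 and 0.42 in the same direction (exact permutation test, 2-sided, p = 0.1 and p = 0.3, adjusted p = 0.35 and 0.583).

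**Figure D3:**
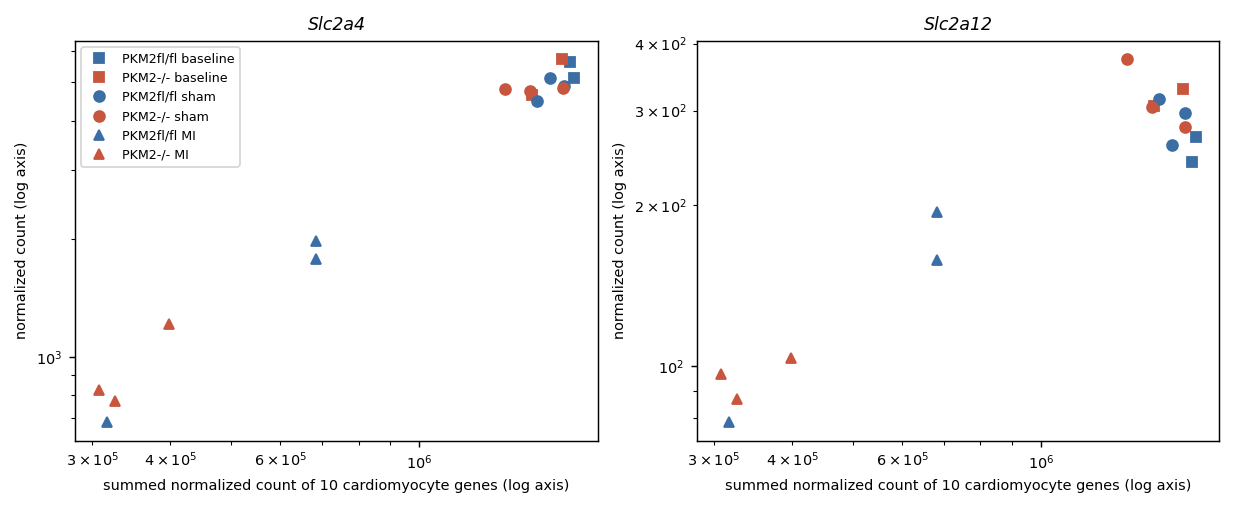
Normalized count of Slc2a4 (left) and Slc2a12 (right) on a log axis against the summed normalized count of 10 cardiomyocyte genes on a log axis, each point a library, with colour for genotype and shape for treatment. Infarcted hearts sit at the lower left. PKM2fl/fl MI replicate 3 has a cardiomyocyte sum within the range of the PKM2-/- MI hearts. It lies below each of them for Slc2a4 (681) and Slc2a12 (78.7).

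Slc2a1 had the largest rise of the family. It encodes GLUT1, which serves basal glucose uptake in most cell types, and lies at chr4:119108745-119137330. Normalized counts were 428, 296 and 320 in PKM2fl/fl sham hearts and 1281, 664 and 1172 in PKM2fl/fl MI hearts. Values in PKM2-/- hearts were 458, 445 and 412 after sham and 1533, 1320 and 1421 after MI. The lowest MI heart was still above the highest sham heart in each genotype. Slc2a1 rose 2.90-fold in PKM2fl/fl (log2 fold change 1.54, SE 0.20, limma adjusted p = 1.79e-05) and 3.24-fold in PKM2-/- hearts (log2 fold change 1.70, SE 0.20, limma adjusted p = 4.83e-06). Replicate 2 (664) was the lowest of the PKM2fl/fl MI hearts. Over fits that each left out a library, the PKM2fl/fl log2 fold change ran from 1.36 to 1.83.

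Slc2a3 encodes GLUT3, a high-affinity glucose transporter best known from neurons and also made by leukocytes, and lies at chr6:122727809-122802363. In PKM2fl/fl hearts it had 153, 90.3 and 74.5 normalized counts after sham and 192, 169 and 241 after MI. The PKM2-/- values were 158, 202 and 125 after sham and 328, 300 and 271 after MI. Slc2a3 rose 1.96-fold in PKM2fl/fl (log2 fold change 0.97, SE 0.24, limma adjusted p = 0.00364) and 1.88-fold in PKM2-/- hearts (log2 fold change 0.91, SE 0.24, limma adjusted p = 0.00471). The highest PKM2-/- sham heart lay above 2 of the 3 PKM2fl/fl MI hearts, so the MI and sham hearts separated only within a genotype.

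Slc2a6 encodes GLUT6, which sits on lysosomal membranes and is made by macrophages, and lies at chr2:27021363-27028000. Sham hearts of PKM2fl/fl mice had 45.8, 48.2 and 34.3 normalized counts and MI hearts 54.1, 71.8 and 173. Those of PKM2-/- mice had 51.4, 41.8 and 43.2 after sham and 95.7, 88.3 and 83.7 after MI. The high PKM2fl/fl value came from MI replicate 3, and Slc2a6 in all 4 baseline hearts (14.0 to 26.7) was below all 6 sham hearts, a difference that was not tested here. Slc2a6 rose 2.05-fold in PKM2fl/fl (log2 fold change 1.03, SE 0.35, limma adjusted p = 0.0217) and 1.95-fold in PKM2-/- hearts (log2 fold change 0.96, SE 0.35, limma adjusted p = 0.0277). Without PKM2fl/fl MI replicate 3 the PKM2fl/fl log2 fold change was 0.55 (limma adjusted p = 0.138; 0.00190 to 0.138 over all alternatives). The call was also lost without PKM2fl/fl sham replicate 3 (limma adjusted p = 0.0824), with only the groups compared in the fit (0.0724) and, in PKM2-/- hearts, without sham replicate 2 or 3 or any MI replicate (limma adjusted p = 0.0502 to 0.0708).

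Slc2a9 encodes GLUT9, which carries urate, and lies at chr5:38349272-38503147. The 3 PKM2fl/fl sham hearts had 89.3, 128 and 200.5 normalized counts, and the MI hearts had 252, 240.0 and 326. Among PKM2-/- hearts, counts were 129, 161 and 93.9 after sham and 382, 293 and 247 after MI. Sham hearts ranged from 89.3 to 200.5, and each MI heart was above all of them. Slc2a9 rose 2.04-fold in PKM2fl/fl (log2 fold change 1.03, SE 0.26, limma adjusted p = 0.00417) and 2.41-fold in PKM2-/- hearts (log2 fold change 1.27, SE 0.26, limma adjusted p = 7.06e-04).

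Slc2a10 encodes GLUT10, whose loss in people causes arterial tortuosity, and lies at chr2:165503897-165519917. Normalized counts were 61.7, 65.7 and 66.2 in PKM2fl/fl sham hearts and 133, 129 and 172 in PKM2fl/fl MI hearts. Values in PKM2-/- hearts were 116, 82.3 and 46.4 after sham and 130.5, 165 and 180.3 after MI. Sham hearts were close together in PKM2fl/fl and spread in PKM2-/- mice. Slc2a10 rose 2.20-fold in PKM2fl/fl (log2 fold change 1.14, SE 0.26, limma adjusted p = 0.00215) and 2.05-fold in PKM2-/- hearts (log2 fold change 1.03, SE 0.26, limma adjusted p = 0.00356). Without PKM2-/- sham replicate 3 the PKM2-/- value was 0.68 (limma adjusted p = 0.0169; 4.52e-04 to 0.0182 over all alternatives).

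Slc2a5, which encodes the fructose transporter GLUT5, was at 0 to 11.0 normalized counts in every library and was not tested. It lies at chr4:150119344-150144168. At this depth no difference between groups was detectable.

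Leukocyte and fibroblast genes rose with the transporters that rose. Of 12 leukocyte genes, 10 were higher after MI in each genotype (24.8% and 28.7% of all genes were higher). Their median log2 fold changes were 1.73 and 1.94, and 0 were at 0 in all libraries. Their summed count was 5966 to 12359 in PKM2fl/fl sham and 23902 to 42241 in PKM2fl/fl MI hearts, and 8614 to 10567 and 34668 to 39512 in the PKM2-/- groups. Of 8 fibroblast genes, 6 were higher and 1 lower in each genotype. Of 8 endothelial genes, 2 were higher in each genotype, while 1 was lower in PKM2fl/fl and 2 in PKM2-/- hearts. Of 5 neuron and Schwann cell genes tested, 2 were higher and 2 lower in each genotype, and of 4 atrial genes 1 was higher. The summed neuron and Schwann cell count was 237 to 313 after sham and 557 to 615 after MI in PKM2fl/fl hearts. In PKM2-/- hearts it was 278 to 349 and 558 to 918. Per leukocyte sum, Slc2a1 differed between MI and sham by -0.23 in PKM2fl/fl and -0.26 in PKM2-/- hearts on the log2 scale (exact permutation test, 2-sided, p = 0.7 and p = 0.3, adjusted p = 0.766 and 0.583), Slc2a3 by -0.79 and -1.04 (p = 0.1 in each, adjusted p = 0.35, exact permutation test) and Slc2a6 by -0.72 and -0.98 (p = 0.2 and p = 0.1, adjusted p = 0.467 and 0.35, exact permutation test). Per leukocyte sum, the difference was thus below 0 for all 3 in both genotypes. Per cardiomyocyte sum, Slc2a1 rose by 3.16 and 3.85 on the log2 scale. The part of any of these cell types in the results was not tested.

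The ratio of Slc2a4 to Slc2a1 does not depend on how libraries are scaled. It was 12.0 to 15.3 in PKM2fl/fl sham hearts and 1.54, 2.68 and 0.582 in PKM2fl/fl MI hearts. The PKM2-/- ratios were 10.5 to 11.6 after sham and 0.793, 0.586 and 0.579 after MI. Slc2a1 counts thus exceeded Slc2a4 counts in all 3 PKM2-/- MI hearts and in 1 of 3 PKM2fl/fl MI hearts, replicate 3, although per kilobase Slc2a4 was the higher in PKM2-/- MI replicate 1 and near-equal to Slc2a1 in the other 3. On the log2 scale, Slc2a1 over Slc2a4 was higher after MI than after sham by 3.396 in PKM2fl/fl and by 4.09 in PKM2-/- hearts (exact permutation test, 2-sided, p = 0.1 in each, adjusted p = 0.167 over 5 comparisons). Without PKM2fl/fl MI replicate 3 the PKM2fl/fl difference was 2.80.

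No member was called between genotypes at baseline, after sham or after MI. This was also so with libraries scaled to their total counts, with and without the rRNA-related loci whose share differed between genotypes (0 of 8 in each). The question here was whether loss of PKM2 changed the transporters before and after injury. At baseline, 0 of the 8 were called, beside 0.00972% of all genes, with an adjusted p of 1 for each by limma, and log2 fold changes (PKM2-/- against PKM2fl/fl) ran from -0.57 for Slc2a10 to 0.32 for Slc2a12. Groups of 2 did not overlap for 4 of the 8 (34.9% of all genes). The 95% interval, before adjustment over all genes, reached from -0.80 to 0.69 for Slc2a4 and from -0.22 to 0.82 for Slc2a1. These intervals do not give the smallest difference that would have been called, since a call also needed adjustment over all genes tested. At an unadjusted p under 0.05 there were 0 members and 748 genes (3.64%).

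After sham, 0 of the 8 were called (0.00972% of all genes). Slc2a3 had the largest difference, 1.57-fold higher in PKM2-/- hearts (log2 fold change 0.65, SE 0.24, 95% interval 0.13 to 1.16, limma adjusted p = 0.370), and its groups overlapped. It was the 1 member of 8 with an unadjusted p under 0.05, beside 9.95% of all genes. Slc2a1 was 1.27-fold higher (log2 fold change 0.35, limma adjusted p = 0.607), with its groups also overlapping. Slc2a1 over Slc2a4 was higher in all 3 PKM2-/- sham hearts than in all 3 PKM2fl/fl sham hearts, by 0.36 on the log2 scale (exact permutation test, 2-sided, p = 0.1, adjusted p = 0.167). At baseline this log2 ratio was higher by 0.35 (p = 0.333, exact permutation test, the smallest that 2 hearts against 2 allow, adjusted p = 0.333).

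After MI, 0 of the 8 were called (0.967% of all genes, 199 genes). Slc2a1 and Slc2a3 were higher in every PKM2-/- than in every PKM2fl/fl MI heart, 2 of 8 beside 10.7% of all genes that were higher without overlap. Slc2a1 was 1.42-fold higher (log2 fold change 0.51, SE 0.20, limma adjusted p = 0.210) and Slc2a3 1.502-fold higher (log2 fold change 0.59, SE 0.24, limma adjusted p = 0.233). These were the 2 members with an unadjusted p under 0.05, beside 17.0% of all genes. Over fits that each left out a library the value ran from 0.21 (without PKM2fl/fl MI replicate 2) to 0.69 (without PKM2fl/fl MI replicate 1) for Slc2a1 and from 0.47 to 0.73 for Slc2a3. Slc2a4 and Slc2a12 differed by -0.54 (SE 0.29, limma adjusted p = 0.354) and -0.48 (SE 0.24, limma adjusted p = 0.326) on the log2 scale, with overlap. The values for Slc2a6, Slc2a8, Slc2a9 and Slc2a10 lay between -0.09 and 0.16.

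The infarct effect itself was compared between genotypes by an interaction term. By limma, 0 of the 8 members and 0.00% of all genes were called, while 0 members and 1703 genes (8.28%) had an unadjusted p under 0.05 and DESeq2 on the recovered reads called 53. The interaction was -0.62 for Slc2a12 (SE 0.34, 95% interval -1.35 to 0.11, limma adjusted p = 0.668) and -0.53 for Slc2a4 (SE 0.40, 95% interval -1.40 to 0.33, limma adjusted p = 0.752). For the other 6 it ran from -0.14 (Slc2a8) to 0.24 (Slc2a9).

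**Figure D4:**
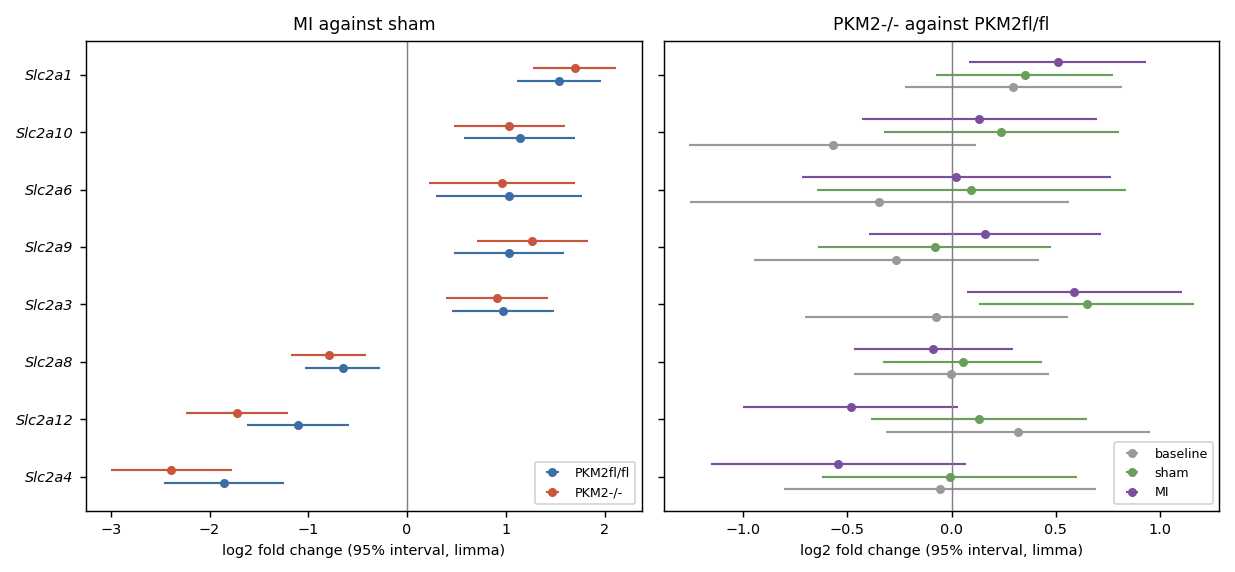
Log2 fold change (x axis) of the 8 tested transporters with 95% intervals from limma, for MI against sham in each genotype (left) and PKM2-/- against PKM2fl/fl at baseline, after sham and after MI (right). Every interval on the left lies on 1 side of 0, and on the right those of Slc2a3 after sham (0.13 to 1.16), Slc2a1 after MI (0.08 to 0.93) and Slc2a3 after MI (0.07 to 1.10) do, before adjustment over all genes (9.95% and 17.0% of all genes had an unadjusted p under 0.05 after sham and after MI).

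The genotype differences of Slc2a4 and Slc2a12 depended on PKM2fl/fl MI replicate 3. Without it, Slc2a4 was lower in PKM2-/- than in PKM2fl/fl MI hearts by -1.03 (limma adjusted p = 7.74e-04; 7.74e-04 to 0.771 over all alternatives) and Slc2a12 by -0.87 (limma adjusted p = 0.00314; 0.00314 to 0.850 over all alternatives). The interaction was then -1.02 for Slc2a4 (limma adjusted p = 0.0212; 0.0212 to 0.928 over all alternatives) and -0.996 for Slc2a12 (limma adjusted p = 0.0269; 0.0269 to 0.922 over all alternatives). Leaving out another MI heart of that group moved the values the other way. The genotype difference after MI was then -0.26 and -0.34 for Slc2a4 and -0.37 and -0.22 for Slc2a12 without replicate 1 and 2, and the interaction was -0.25 and -0.33 for Slc2a4 and -0.50 and -0.35 for Slc2a12. Leaving out replicate 3 also raised the count of all genes called from 199 to 2279 between genotypes after MI and from 0 to 486 for the interaction. Per cardiomyocyte sum and with all hearts, Slc2a4 differed between genotypes after MI by 0.09 (exact permutation test, 2-sided, p = 0.6, adjusted p = 0.766) and Slc2a12 by 0.14 (exact permutation test, 2-sided, p = 0.4, adjusted p = 0.667).

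Of 16 genes that move GLUT4 vesicles, 6 were higher and 4 lower after MI in PKM2fl/fl and 6 higher and 5 lower in PKM2-/- hearts, shares near those of all genes (50.1% and 56.8% called), with median log2 fold changes of -0.15 and -0.09 beside -0.0025 and 0.010 over all genes. Tbc1d1, a Rab GTPase-activating protein that holds GLUT4 inside the cell until phosphorylated, rose by 1.41 in PKM2fl/fl and 1.33 in PKM2-/- hearts on the log2 scale, and its relative Tbc1d4 (AS160) fell by 1.07 and 1.27. Myo1c, a motor that helps vesicles reach the membrane, rose by 0.59 and 0.58. Rhoq, the small GTPase TC10, was lower in PKM2-/- than in PKM2fl/fl MI hearts by -0.38 on the log2 scale (limma adjusted p = 0.0354), a call that was lost in 11 of 16 fits that each left out a library, and that without PKM2fl/fl MI replicate 3 had an adjusted p of 0.00910 (limma; 7.41e-05 to 0.986 over all alternatives).

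Of 10 insulin signalling genes, 1 was higher and 4 lower after MI in each genotype, no larger a share than the 50.1% and 56.8% of all genes called, with medians of -0.10 and -0.34. The insulin receptor gene Insr fell by 0.93 in PKM2fl/fl and 0.98 in PKM2-/- hearts on the log2 scale, and Pik3r1, a regulatory subunit of phosphoinositide 3-kinase, fell by 1.10 and 1.14. The catalytic subunit gene Pik3cb rose by 0.54 in each. Irs1, an insulin receptor substrate, fell by 1.05 and 2.04, and was lower in PKM2-/- than in PKM2fl/fl MI hearts by -0.93 (limma adjusted p = 0.0481), a call lost in 13 of 16 fits that each left out a library (adjusted p from 0.00125 to 0.393 over all alternatives). With libraries scaled to their total counts, Pik3cb and Myo1c were not called in PKM2fl/fl hearts, nor were Insr, Pik3r1 and Epas1 in PKM2-/- hearts.

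Of 11 regulators of transporter transcription, 1 was higher in each genotype, while 7 were lower in PKM2fl/fl and 8 in PKM2-/- hearts (25.3% and 28.1% of all genes were lower), with medians of -0.54 and -0.72. Klf15, a factor that acts on the Slc2a4 gene, fell by 2.21 and 2.46 on the log2 scale. Hif1a, which encodes a HIF alpha subunit, rose by 1.02 and 1.36, and Epas1, which encodes another, fell by 0.94 and 1.17. Mlxipl, which encodes the glucose-sensing factor ChREBP, fell by 1.07 and 2.30, and was lower in PKM2-/- than in PKM2fl/fl MI hearts by -1.58 (limma adjusted p = 0.00450), a call kept in 16 of 16 fits that each left out a library. The interaction for Mlxipl was -1.24 (limma adjusted p = 0.280). Cardiomyocyte genes had a median of -0.52 in that genotype comparison, with 0 of 10 called.

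Txnip and Arrdc4 encode arrestins that take GLUT1 and GLUT4 back from the surface. Txnip fell by 0.84 in PKM2fl/fl hearts (limma adjusted p = 0.0291, lost without PKM2fl/fl MI replicate 3 at 0.0646; 0.00315 to 0.139 over all alternatives) and differed by -0.65 in PKM2-/- hearts (limma adjusted p = 0.0771). Arrdc4 was not called in either genotype, at 0.06 and 0.30.

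The genes whose pattern over the 16 libraries was most like that of Slc2a1 were Gm12868, Gm15832 and Rtn4. Likeness was the root mean square difference of log2(normalized count + 1), each gene centred on its own mean, and was 0.13, 0.16 and 0.21 beside 0.86 for the spread of Slc2a1 itself. Gm12868 lies antisense within Slc2a1 over 5053 bases and had 317 normalized counts on average, so reads of Slc2a1 and Gm12868 cannot be told apart without strand. Most like Slc2a4 were Prob1 (0.11), Perm1 (0.12) and Gm37829 (0.12), beside 1.12 for the spread of Slc2a4. These are descriptions over 20575 genes in hearts that share treatment and library.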

How the data were processed

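Total RNA of mouse left ventricles was depleted of rRNA and sequenced as read pairs. The authors used PRINSEQ for trimming, HISAT2 for alignment (mm10) and featureCounts for reads per gene. Strand and multi-mapping settings are not given in the sources used here. The deposited signal is the normalized count, that is, reads per gene over the size factor DESeq2 gave each library. Values divided by the step of each library were whole within 0.01 for 100.0%. The table also holds the authors' mean and their own baseline comparison (fold change, standard error, statistic and p), which were not used. All 16 columns matched a sample, with 0 left over.

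limma 3.58.1 (trend) in R 4.3.3 was fitted to log2(normalized count + 1) with 6 group means for genes with a mean of at least 10, and p-values were adjusted by Benjamini-Hochberg over all genes. The code was tested on simulated data. Ratios were compared by exact permutation in scipy 1.17.1. Alternatives were total count scaling with and without rRNA-related loci, TMM, a pseudocount of 0.1, no filter, edgeR 4.0.16 and DESeq2 1.42.0 on recovered reads, only the groups compared, the replicate number as a block, and each library left out. Coordinates are RefSeq on GRCm38.p6, and lengths and overlaps are from GENCODE M39.

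The members and gene lists were chosen with earlier results of these data known. Besides the members, the genes named were at most 3 per list with the smallest adjusted p in PKM2fl/fl hearts after MI, any list gene called between genotypes, and the 3 most like Slc2a1 and Slc2a4. P-values measure the spread between mice.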

Additional observations from a re-analysis of the deposited data

How the results depend on the processing

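Of 400 member values for MI against sham under the alternatives named above, 386 kept direction and side of the threshold, 14 kept direction only and 0 reversed. Of 800 for genotypes and the interaction, 742 did so, 54 changed sign and 4 passed the threshold. Total count scaling moved the median of all genes to -0.17 and 0.52 for MI in PKM2fl/fl and PKM2-/-, 0.68 for the interaction, and -0.59, -0.33 and 0.36 between genotypes at baseline, after sham and after MI. Relative to these medians, the largest difference of a member from its value under the deposited scaling was 0.034. This follows from arithmetic, since a library's scale shifts all its genes alike, and is no test of the members. Under total count scaling 4 members and 6022 genes were called for MI in PKM2fl/fl hearts. The other counts of genes called were 54 (interaction), 44 (baseline), 113 (sham) and 121 (MI). Signs then changed for the interaction of Slc2a3 (0.63), Slc2a4 (0.16), Slc2a6 (0.61), Slc2a8 (0.54), Slc2a10 (0.58) and Slc2a12 (0.069), for Slc2a1 (-0.29) and Slc2a12 (-0.27) at baseline, for Slc2a6 (-0.22), Slc2a8 (-0.27), Slc2a10 (-0.078) and Slc2a12 (-0.19) after sham, and for Slc2a8 (0.28) after MI. Without rRNA-related loci they changed for the interaction of Slc2a3 (0.16), Slc2a6 (0.14), Slc2a8 (0.075) and Slc2a10 (0.11) and for Slc2a8 after sham (-0.00053) and after MI (0.074), with 0 genes called after sham. Between genotypes after MI, Slc2a6 was -0.18 by edgeR and -0.17 by DESeq2. Genes called were 53 (interaction), 17, 273 and 1035 (baseline, sham, MI) by DESeq2, 1 by edgeR at baseline, 9 with a pseudocount of 0.1 at baseline, 0 without a filter after sham, and 48, 9 and 6 with only the groups compared.

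Deviations of same-numbered libraries of different groups were weakly correlated at most (36 pairs, correlations from -0.20 to 0.13, 1 over 0.1). The baseline groups against each other gave the same value, -0.048, for each replicate, so the 36 are not all independent. Differently numbered libraries were not compared, so whether the numbers pair mice could not be decided. With the replicate number as a block, 1, 0 and 75 genes were called between genotypes at baseline, after sham and after MI, no member's call changed, and the calls of Rhoq and Irs1 between genotypes after MI were lost.

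Leaving out each library, genes called ran from 0 to 486 (interaction), 0 to 40 (baseline), 0 to 90 (sham) and 11 to 2279 (MI), and members called from 0 to 2 for the interaction and after MI. Interaction values ran from -0.14 to 0.34 for Slc2a1, -0.36 to 0.16 for Slc2a3, -0.42 to 0.41 for Slc2a6, -0.38 to 0.021 for Slc2a8, -0.058 to 0.52 for Slc2a9 and -0.46 to 0.19 for Slc2a10. At baseline they ran from -0.24 to 0.10 for Slc2a3, -0.21 to 0.095 for Slc2a4, -0.70 to 0.0081 for Slc2a6 and -0.11 to 0.10 for Slc2a8. After sham they ran from -0.063 to 0.033 for Slc2a4, -0.053 to 0.19 for Slc2a6, -0.050 to 0.14 for Slc2a8, -0.36 to 0.22 for Slc2a9 and -0.060 to 0.59 for Slc2a10. After MI they ran from -0.32 to 0.51 for Slc2a6, -0.33 to 0.074 for Slc2a8 and -0.0083 to 0.31 for Slc2a9. The cause was not tested.

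Divided by summed cardiomyocyte genes, values changed sign for Slc2a8 (0.96 and 1.36 for MI in PKM2fl/fl and PKM2-/-, 0.54 between genotypes after MI), Slc2a12 (0.51, 0.42 and 0.14) and Slc2a4 between genotypes after MI (0.086). Divided by summed leukocyte genes, they did for Slc2a1 (-0.23 and -0.26), Slc2a3 (-0.79 and -1.04) and Slc2a6 (-0.72, -0.98 and -0.26). These scalings were chosen after seeing the data.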

Other observations

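Other genes of hexose handling also changed after MI. Slc2a13, which encodes a proton-coupled myo-inositol transporter of the same family, rose by 0.73 in PKM2fl/fl (limma adjusted p = 0.0175) and by 0.85 in PKM2-/- hearts (limma adjusted p = 0.00594) on the log2 scale, and Slc2a2 and Slc2a7 had too few reads to test. Without PKM2fl/fl MI replicate 3, Slc2a13 in PKM2fl/fl hearts was at 0.60 (limma adjusted p = 0.0731; 0.00472 to 0.213 over all alternatives). Among the hexokinases, which trap glucose by phosphorylation, Hk3 rose by 2.78 and 3.04 and Hk2 fell by 1.04 and 1.17 on the log2 scale. The sodium-coupled transporter gene Slc5a1 fell by 2.33 (limma adjusted p = 0.0154) and 2.57 (limma adjusted p = 0.00747), and its relative Slc5a2 rose by 0.72 in PKM2fl/fl hearts (limma adjusted p = 0.0396, a call lost in 4 of 16 fits that each left out a library) and stood at 0.63 in PKM2-/- hearts (limma adjusted p = 0.0633). Without PKM2fl/fl MI replicate 3 the value of Slc5a1 in PKM2fl/fl hearts was -1.40 (limma adjusted p = 0.0881; 0.00150 to 0.0881 over all alternatives).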
